A study of Mus musculus with 24 samples.

Results

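The genes described here are 9 GTPases that interferon-gamma switches on in mouse cells: Irgm1, Irgm2, Igtp, Iigp1 and Ifi47 of the immunity-related GTPase (IRG) family, and Gbp2, Gbp3, Gbp4 and Gbp6 of the guanylate-binding protein (GBP) family. They were found by symbol among the 18193 genes that the arrays measure with a probe set of their own, a probe set being a group of array probes for 1 transcript. A gene with several probe sets was taken at the one that was brightest on average over the 24 arrays. A probe set of its own was found for 8 of the 9. Gbp4 shares its probe set with Gbp8, with log2 values between 1.83 and 1.96 on lung arrays and between 2.27 and 2.37 on heart arrays, and was left out of all counts below.

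Interferon-gamma is released mainly by natural killer cells and T cells. Its receptor acts through JAK kinases, and promoters of the genes it induces often hold gamma activated sites (GAS) or interferon-stimulated response elements (ISRE). IRF1 binds the ISRE. IRG and GBP proteins are among the most strongly induced products of this pathway. In infected mouse cells they gather on the membranes around intracellular bacteria and parasites and break them, and Irgm1, Irgm2 and Igtp keep the other IRG proteins inactive on the cell's own membranes. Type I interferons induce many of the same genes.

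RNA was taken from lung and from heart left ventricle of CD-1 mice aged 20 weeks, in 4 groups of 3 per tissue: dnCREB mice given particulate matter (PM), dnCREB mice given phosphate-buffered saline (PBS), wild-type mice given PM, and wild-type mice given PBS. The dnCREB mice express a CREB1 transcription factor that acts as a dominant negative, from a myosin heavy chain promoter that is specific to heart muscle cells, so the transgene is directed to those cells. Whether the lung samples hold RNA of the transgene was not tested. PM was given at 20 mg/kg, with particles of 1.9 µm, and tissue was taken at 36 h. The label of the PM hearts speaks of lung harvest, and no source says if a lung and a heart with the same number share an animal. Nothing else says how the 3 arrays of a group are related, so p-values measure the spread between these samples only.

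Values are log2 expression levels made by the authors with GCRMA. Testing required a level above 4 on 3 or more of the 12 arrays of a tissue. This held for 11600 genes in lung, the 8 GTPases among them, and for 9962 genes in heart, with 7 of them, since Ifi47 stayed at 2.05 to 3.64 in all hearts. "Rose" and "fell" are used for an adjusted p under 0.05 (limma, Benjamini-Hochberg over all genes of the tissue). Changes are log2 differences with their standard error (SE), and other errors are SD over n = 3 arrays. In whole tissue, fewer cells of a type and less RNA per cell cannot be told apart. Lung epithelium markers averaged 13.0 to 13.5 on the lung arrays and heart muscle markers 15.4 to 15.8 on the heart arrays. Heart muscle markers were also present in lung, averaging 7.91 to 10.40 on the dnCREB PBS lungs and 8.29 to 8.56 on the wild-type PBS lungs.

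Some arrays went against their labels or stood apart. All mice are labelled male, but the female-specific transcript Xist was high in the 3 dnCREB PM lungs, dnCREB PBS lung 2, wild-type PM lungs 1 and 3, dnCREB PM heart 3 and the 6 wild-type hearts. The Y-linked gene Eif2s3y was high in wild-type PM lung 2, in the 3 wild-type PBS lungs, and in dnCREB hearts PM 1 and 2 and PBS 1 to 3. In 5 lungs (dnCREB PM 3, dnCREB PBS 1 and 3, wild-type PM 1 and 2) the mean level of 12 skeletal muscle markers was 7.93 to 8.32, against 3.12 to 4.38 in the other 7. Both dnCREB PBS lungs 1 and 3 were low in Xist and in the Y-linked genes Eif2s3y, Kdm5d and Uty. The mean level of 8 endothelium markers was 10.20 in wild-type PBS lung 1, against 10.91 to 11.87 in the other lungs, and 11.72 in dnCREB PM heart 1, against 10.01 to 10.81 in the other hearts. Below, the lung counts and correlations are also given without the 5 lungs high in muscle genes, and calls with the Xist level as a covariate or without single arrays.

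Most of the GTPases rose under PM in the wild-type lung. Of the 8 measured, 7 rose, against 1.96% of all 11600 genes that rose, and Gbp6 did not pass. The median change of the 8 was 1.42, against 0.11 over all genes. The same 7 had their 3 PM lungs above all 3 PBS lungs, which held for 17.4% of all genes in that direction.

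Irgm1, Irgm2 and Igtp are the regulatory members of the IRG family. Igtp stood at 8.74, 10.11 and 9.55 in the wild-type PM lungs, against 7.78, 7.88 and 7.61 in the wild-type PBS lungs. The highest and lowest PM lungs lay more than 1 log2 unit apart, while the PBS lungs lay close together, and the groups did not overlap. Igtp rose by 1.71 ± 0.30 (SE), a 3.27-fold change (adjusted p = 0.0216).

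Irgm2 stood at 10.20, 11.24 and 10.72 in the wild-type PM lungs, against 9.19, 9.21 and 9.21 in the wild-type PBS lungs. The spread again lay in the PM group, with replicate 2 highest. The change was 1.52 ± 0.23 (SE), or 2.87-fold (adjusted p = 0.0163), the lowest adjusted p of the 8 genes in this comparison. For Irgm1, the levels were 8.18, 9.02 and 8.84 in the wild-type PM lungs, against 7.36, 7.24 and 7.36 in the wild-type PBS lungs. It rose by 1.36 ± 0.23 (adjusted p = 0.0208), and again the PBS lungs were tightly grouped.

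Iigp1 and Ifi47 belong to the IRG proteins that load onto the membranes around pathogens. Iigp1 had the largest change of the 8 in wild-type lung, with levels of 10.45, 10.43 and 11.09 in the PM lungs, against 9.16, 9.08 and 8.26 in the PBS lungs. It rose by 1.82 ± 0.37 (SE), or 3.54-fold (adjusted p = 0.0341). Here PBS replicate 3 lay lowest and PM replicate 3 highest. A second Iigp1 probe set gave a change of 1.89 ± 0.50 and did not pass (adjusted p = 0.0654). Ifi47 stood at 10.00, 10.82 and 10.04 in the wild-type PM lungs, against 8.60, 8.93 and 8.95 in the wild-type PBS lungs, and rose by 1.46 ± 0.25 (adjusted p = 0.0208).

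Among the GBP genes, Gbp2, whose protein gathers on the vacuole of Toxoplasma in mouse cells, had the smallest change. It stood at 10.55, 11.32 and 10.83 in the wild-type PM lungs, against 10.05, 10.22 and 10.07 in the wild-type PBS lungs. The groups did not overlap, and the rise of 0.79 ± 0.18 (SE) lay just inside the threshold (adjusted p = 0.0488). A second Gbp2 probe set changed by 0.49 and did not pass (adjusted p = 0.123).

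Gbp3 stood at 8.42, 9.02 and 9.68 in the wild-type PM lungs, against 7.64, 7.59 and 7.74 in the wild-type PBS lungs, and rose by 1.39 ± 0.29 (adjusted p = 0.0388). Gbp6 was the exception, at 8.24, 8.79 and 9.31 in the wild-type PM lungs and 8.60, 7.29 and 7.88 in the wild-type PBS lungs. PBS replicate 1 lay above PM replicate 1, and the change of 0.86 ± 0.35 did not pass (adjusted p = 0.158). Its second probe set gave 1.15 (adjusted p = 0.0834). Mouse Gbp genes lie in clusters of close copies, so a probe set can pick up more than 1 of them.

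**Figure D1:**
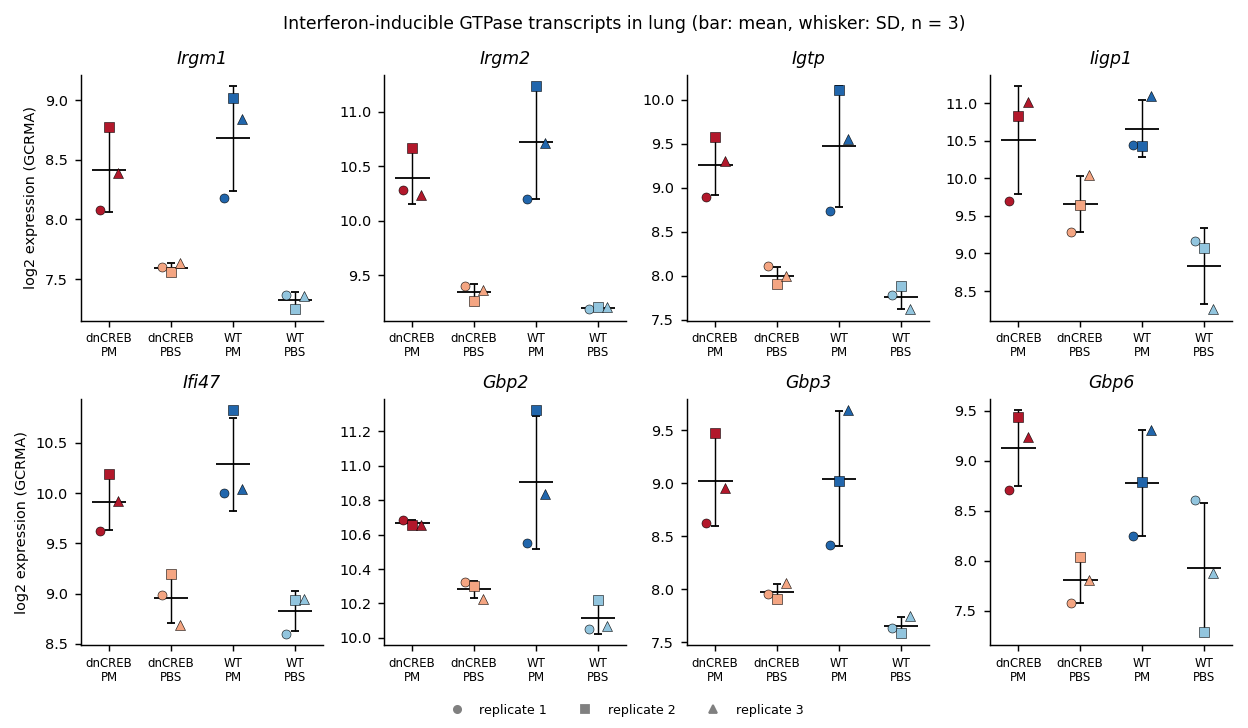
Log2 level (vertical axis) of each of the 8 GTPases in lung, 1 panel per gene, in dnCREB PM, dnCREB PBS, wild-type PM and wild-type PBS mice. Points are single arrays, the bar is the group mean and the whisker the SD (n = 3). Except for Iigp1 in dnCREB mice and Gbp6 in wild type, every PM lung lies above every PBS lung of its genotype.

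In dnCREB lungs the 8 genes also lay higher under PM on average, but none passed the test without array weights: 0 of 8 rose, where 1 of 11600 genes (0.00862%) did. By limma at an unadjusted p under 0.05, 7 of the 8 and 1127 genes in all differed. In 7 of the 8, each dnCREB PM lung lay above each dnCREB PBS lung, which held for 20.8% of all genes in that direction. With arrays weighted by how closely they followed the fit (limma array weights), 8 of 8 rose, where 11.3% of all genes rose. In the fit without weights their median change was 1.00, against 0.07 over all genes.

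Gbp6 had the largest change in dnCREB lung, with 8.71, 9.43 and 9.24 in the PM lungs, against 7.58, 8.04 and 7.81 in the PBS lungs. The groups lay apart, with a change of 1.32 ± 0.35 (SE, adjusted p = 0.308). Igtp stood at 8.89, 9.57 and 9.30 in the dnCREB PM lungs, against 8.11, 7.90 and 7.99 in the dnCREB PBS lungs, a change of 1.26 ± 0.30 (adjusted p = 0.239). Irgm2 had 10.29, 10.67 and 10.23 in the dnCREB PM lungs, against 9.41, 9.26 and 9.36 in the dnCREB PBS lungs, a change of 1.05 ± 0.23 (adjusted p = 0.231).

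Gbp3 stood at 8.63, 9.47 and 8.95 in the dnCREB PM lungs, against 7.95, 7.91 and 8.06 in the dnCREB PBS lungs, a change of 1.04 (adjusted p = 0.310). Ifi47 stood at 9.63, 10.19 and 9.93 in the dnCREB PM lungs, against 8.99, 9.20 and 8.69 in the dnCREB PBS lungs, a change of 0.96 (adjusted p = 0.308). Irgm1 stood at 8.08, 8.77 and 8.39 in the dnCREB PM lungs, against 7.60, 7.56 and 7.63 in the dnCREB PBS lungs, a change of 0.82 (adjusted p = 0.310). In these 3 genes PM replicate 2 was the highest lung, as it was for Igtp, Irgm2 and Gbp6.

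Iigp1 was the only one of the 8 whose dnCREB groups overlapped, at 9.69, 10.83 and 11.02 in the PM lungs and 9.29, 9.64 and 10.04 in the PBS lungs. Its change was 0.85 ± 0.37 (adjusted p = 0.500). Gbp2 moved least, at 10.68, 10.65 and 10.65 in the dnCREB PM lungs, against 10.32, 10.30 and 10.23 in the dnCREB PBS lungs, a change of 0.38 ± 0.18 (adjusted p = 0.535).

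The response of the dnCREB lung was not shown to differ from that of the wild-type lung. The interaction (the PM change in dnCREB minus that in wild type) lay below 0 for 7 of the 8 genes, from -0.97 ± 0.53 (SE) for Iigp1 to 0.46 ± 0.50 for Gbp6. None passed (lowest adjusted p = 0.831), against 0.00862% of all genes, and at an unadjusted p under 0.05 limma gave 0 of the 8 and 606 genes. With errors of this size, the interaction neither shows a difference nor shows that the genotypes respond alike.

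Averaged over both genotypes, all 8 rose under PM, against 5.41% of all genes that rose. The averaged change was 1.48 ± 0.21 (SE) for Igtp (adjusted p = 0.0077), 1.34 for Iigp1 (adjusted p = 0.0206), 1.29 for Irgm2 (adjusted p = 0.0055) and 1.21 for both Ifi47 (adjusted p = 0.0077) and Gbp3 (adjusted p = 0.0131). It was 1.09 for both Irgm1 (adjusted p = 0.0079) and Gbp6 (adjusted p = 0.0297), and 0.59 for Gbp2 (adjusted p = 0.0263). The second probe set of Gbp6 gave the same averaged value, 1.09 (adjusted p = 0.0198), and that of Iigp1 gave 1.61 (adjusted p = 0.0190). That of Gbp2 gave 0.28 and did not pass (adjusted p = 0.169).

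The calls depended on the arrays that stood apart, while the sizes changed less. Without the 5 lungs high in skeletal muscle genes, 0 of 8 passed in wild type, in dnCREB lung and on average over the genotypes, where 4, 0 and 0 of all genes passed, with Igtp at 1.79 in wild type (adjusted p = 0.378) and at 1.56 on average (adjusted p = 0.213). That fit keeps a single wild-type PM lung and a single dnCREB PBS lung, which are assumed to vary like the other groups. That wild-type PM lung, replicate 3, had Igtp at 9.55 and Gbp3 at 9.68, above all wild-type PBS lungs, but unlike them it was high in Xist. With the skeletal muscle level as a covariate, Igtp changed by 1.68 in wild type (adjusted p = 0.102), where 0 of 8 passed, and by 1.47 on average (adjusted p = 0.0127), where 8 of 8 passed. The counts over all genes with this covariate are not given, so these counts do not set the GTPases apart from other genes.

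Leaving out a single wild-type lung also moved the wild-type count. The count over all genes moved too, from 38 to 625 when each lung was left out in turn. Without PBS replicate 2, 0 of 8 passed, with Igtp at 1.77 (adjusted p = 0.0646). Without PM replicate 2, only Irgm2 passed, at 1.26 (adjusted p = 0.0345), and Igtp changed by 1.39 (adjusted p = 0.063). Of the 7, 4 passed (Ifi47, Igtp, Irgm1 and Irgm2) without wild-type PBS 1, PBS 3 or PM 3, or without dnCREB PBS 2 or PBS 3. With the Xist level as a covariate 5 passed, with Igtp at 2.08 (adjusted p = 0.021). The counts over all genes with the Xist covariate are not given. Wild-type PM lung 2, which has low Xist and high Eif2s3y like the wild-type PBS lungs, had Igtp at 10.11, above those lungs at 7.61 to 7.88. Unlike them, it was high in skeletal muscle genes. No wild-type PM lung was like the wild-type PBS lungs in both Xist and muscle genes. PM, sex and muscle RNA therefore cannot be told apart in wild type. All dnCREB PM lungs were high in Xist, while dnCREB PBS lungs 1 and 3 were low in Xist and high in muscle genes. Only dnCREB PBS lung 2 was like dnCREB PM lungs 1 and 2 in both. With a single such lung, PM, sex and muscle RNA cannot be told apart in dnCREB lung either. On average over the genotypes, 5 of 8 passed with the Xist covariate, and Gbp3, Gbp6 and Iigp1 did not.

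The genotypes did not pass a test against each other in lung. Under PBS, 0 of 8 genes passed (0.0259% of all genes did in either direction), although in 6 of the 8 the dnCREB lungs lay above all wild-type lungs, which held for 5.85% of all genes in that direction. The largest difference was that of Iigp1, at 0.83 ± 0.37 (SE, adjusted p = 0.875), and limma gave 1 of 8 and 629 genes at an unadjusted p under 0.05. All wild-type PBS lungs were high in Eif2s3y and low in muscle genes. Each dnCREB PBS lung was either high in Xist or high in muscle genes. Genotype, sex and muscle RNA therefore cannot be told apart in lung under PBS. Under PM, 0 of 8 passed and 0% of all genes did. Differences under PM ran from -0.37 for Ifi47 to 0.35 for Gbp6, all groups overlapped, and 0 of 8 and 461 genes had an unadjusted p under 0.05.

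Promoter sequences are shown for the 5 GTPases whose windows hold the ISRE letters, to show where those letters lie. The windows come from RefSeq (GRCm38.p6) and run from 250 bases before to 50 bases after a transcript start. They were found for 6 of the 9 genes, with 7 windows in all, and not for Iigp1, Gbp4 and Gbp6. The 110 bases before that start are printed 5′ to 3′ on the gene's strand, with ISRE and GAS matches in capitals. That start is also where the annotated gene begins, except for Gbp3, whose printed window belongs to a transcript that starts at chr3:142560044, 28 bases inside the gene, so its last 28 printed bases lie within the gene. The ISRE was searched on both strands as GAAA, any 2 bases and GAAA, which reads as TTTC, any 2 bases and TTTC on the other strand. The GAS was searched as TTCNNNGAA, which reads the same on both strands.

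Irgm1, chr11:48871421-48871530, minus strand: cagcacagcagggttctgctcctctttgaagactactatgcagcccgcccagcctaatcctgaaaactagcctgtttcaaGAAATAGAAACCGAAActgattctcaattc
Irgm2, chr11:58214867-58214976, plus strand: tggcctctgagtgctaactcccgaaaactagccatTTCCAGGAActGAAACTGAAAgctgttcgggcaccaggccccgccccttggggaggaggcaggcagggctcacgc
Igtp, chr11:58199446-58199555, plus strand: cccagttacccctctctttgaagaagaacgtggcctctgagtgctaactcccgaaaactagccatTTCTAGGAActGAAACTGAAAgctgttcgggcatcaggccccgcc
Gbp2, chr3:142620553-142620662, plus strand: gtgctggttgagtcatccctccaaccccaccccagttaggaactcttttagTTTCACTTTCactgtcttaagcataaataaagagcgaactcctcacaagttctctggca
Gbp3, chr3:142559934-142560043, plus strand: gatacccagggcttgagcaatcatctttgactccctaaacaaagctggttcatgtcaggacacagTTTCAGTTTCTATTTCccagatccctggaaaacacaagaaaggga

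The ISRE letters were present in 5 of the 7 windows, against 3.44% of all 32851 RefSeq windows, and in 5 of the 6 genes, against 3.99% of all genes with a window. Positions are counted from the transcript start of each window. In Irgm1 and Gbp3 a pair of matches overlap, at bases -30 to -21 and -24 to -15 of Irgm1 and at -45 to -36 and -39 to -30 of Gbp3. The match lay at -64 to -55 in Irgm2, at -34 to -25 in Igtp and at -59 to -50 in Gbp2. The window of Ifi47 and the second window of Gbp3 held none. The GAS letters were found in Irgm2, at -75 to -67, and in Igtp, at -45 to -37, against 8.30% of all windows, and both motifs together stand in 0.454% of windows.

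Igtp (chr11:58199556-58207592) and Irgm2 (chr11:58214977-58222783) lie close together, and their windows share 244 of 265 aligned bases (92.1%). In both, the GAS letters stand just before the ISRE letters with 2 bases between them. Irgm1 (chr11:48865245-48871420) and Ifi47 (chr11:49076587-49096987) lie elsewhere on that chromosome and Iigp1 on chromosome 18. Gbp2 (chr3:142620663-142638008) and Gbp3 (chr3:142560016-142573213) lie in the Gbp cluster of chromosome 3, and Gbp6 (chr5:105270702-105295871) in that of chromosome 5. A match is a stretch of letters, and binding was not measured.

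Other genes of the pathway in lung were counted from lists chosen with these results known. Of all genes, 0.00862% rose in dnCREB lung, 1.96% in wild-type lung and 5.41% on average over the genotypes. A count of 0 in dnCREB lung therefore sets no list apart from other genes, here and below. The ligand gene Ifng stayed at 2.45 to 2.70 in all lungs, under the level needed for a test. Of 16 genes of interferon-gamma supply, reception and signalling that were tested, 0 rose in dnCREB lung and 2 in wild-type lung, with a median change of 0.39 in wild type against 0.11 over all genes. The 2 were Tbx21, the transcription factor T-bet of interferon-gamma producing lymphocytes, at 2.46 ± 0.39 (SE, adjusted p = 0.0199), and Stat4, which carries the interleukin-12 signal, at 1.07 (adjusted p = 0.0247). On average over the genotypes 5 rose, among them Tbx21 at 2.16 (adjusted p = 0.0055) and Socs3, a feedback inhibitor of JAK kinases, at 1.28 (adjusted p = 0.0216). Tbx21 lay under the level needed for a test in all PBS lungs, and was tested only through its PM lungs. Its calls, in wild type and on average, therefore rest on PBS values below the filter, and the size of its change is uncertain. Apart from Tbx21, Stat4 was the only gene of this list called in wild-type lung. Irf1 changed by 0.33 in wild type (adjusted p = 0.362).

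Among 22 other interferon-gamma induced genes that were tested, 0 rose in dnCREB lung and 5 in wild-type lung, with a median change of 0.66 in wild type. The shares over all genes were 0.00862% and 1.96%. Those with the smallest p were Tap1, the peptide transporter of antigen presentation, at 1.76 (adjusted p = 0.0123), the antibody receptor gene Fcgr1 at 3.28 (adjusted p = 0.0150), the chemokine gene Ccl5 at 2.02 (adjusted p = 0.0199) and Nlrc5, the activator of MHC class I genes, at 1.46 (adjusted p = 0.0284). The chemokine gene Cxcl9 stayed at 2.77 to 3.09, under the level needed for a test. Of 16 type I interferon response genes, 0 rose in dnCREB lung and 4 in wild-type lung. All 16 lay above 0 in both, with a median of 1.64 in wild type, and Irf7, a transcription factor of type I interferon production, rose by 2.53 (adjusted p = 0.0209).

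Few other IRG and GBP genes could be measured. Of 21 listed, 5 had a probe set of their own and 4 were tested in lung, with 0 called in wild type. Gm4951, a predicted IRG family gene, changed by 1.39 in dnCREB lung and by 1.43 in wild-type lung (adjusted p = 0.0515), and rose by 1.41 on average (adjusted p = 0.0126). Gbp7 changed by 0.11 in wild type (adjusted p = 0.822). Of 20 partner genes, which conjugate ubiquitin-like proteins or form the inflammasome, 0 rose in dnCREB lung, in wild-type lung or on average, with a median of -0.02 in wild type. One of them, Gabarapl2, fell on average by 0.60 (adjusted p = 0.0353).

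These list calls also depended on the arrays that stood apart. Without the 5 lungs high in muscle genes, or with the skeletal muscle level as a covariate, 0 genes of the signalling, other induced and type I lists rose in wild-type lung. Their wild-type medians without the 5 lungs were 0.15, 0.62 and 1.45, against 0.39, 0.66 and 1.64 over all arrays.

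Markers of several cell types lay higher under PM in the wild-type lung, as the GTPases did. Of all genes, 1.96% rose there and 0.00862% rose in dnCREB lung. Of 12 T cell and natural killer cell markers tested, 0 rose in dnCREB lung and 4 in wild-type lung, with Nkg7 in wild type at 2.09 (adjusted p = 0.0071), Cd247 at 1.72 (adjusted p = 0.0078), Gzmb at 1.54 (adjusted p = 0.0311) and Prf1 at 1.90 (adjusted p = 0.0331). The mean level of the 13 measured markers was 6.76 to 6.94 in dnCREB PM lungs, against 6.55 to 6.99 in dnCREB PBS lungs, and 6.58 to 7.08 in wild-type PM lungs, against 5.75 to 6.01 in wild-type PBS lungs. In dnCREB lung 6 of the 12 tested lay above 0 and 6 below. Of 16 macrophage and monocyte markers, 0 rose in dnCREB lung and 3 in wild-type lung, among them C1qb at 2.38 (adjusted p = 0.0199). Their mean level was 9.37 to 9.93 in dnCREB PM lungs, against 8.97 to 9.07 in dnCREB PBS lungs, and 9.94 to 10.54 in wild-type PM lungs, against 8.53 to 9.14 in wild-type PBS lungs. Without the 5 lungs high in muscle genes 0 of these markers rose in wild type, with medians of 0.66 for the T and natural killer cell list and 0.84 for the macrophage list.

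Of the 7 neutrophil, 4 B cell and 6 fibroblast markers tested, 0 rose in dnCREB lung and 0 in wild-type lung. Mean neutrophil levels were 8.52 to 9.35 in dnCREB PM lungs, against 8.05 to 8.57 in dnCREB PBS lungs, and 8.74 to 10.85 in wild-type PM lungs, against 7.55 to 8.71 in wild-type PBS lungs. B cell levels were 6.11 to 6.62 in dnCREB PM lungs, against 5.78 to 6.49 in dnCREB PBS lungs, and 6.29 to 6.62 in wild-type PM lungs, against 5.32 to 5.71 in wild-type PBS lungs. Fibroblast levels were 10.93 to 11.30 in dnCREB PM lungs, against 10.70 to 11.26 in dnCREB PBS lungs, and 10.89 to 11.21 in wild-type PM lungs, against 10.32 to 10.52 in wild-type PBS lungs. For each of these 3 sets the wild-type groups lay apart and the dnCREB groups overlapped. For neutrophils the margins were small. The lowest wild-type PM lung stood at 8.742 and the highest wild-type PBS lung at 8.709, and in dnCREB these were 8.521 and 8.572. Of all single genes, 17.4% lay fully higher under PM in wild-type lung and 20.8% in dnCREB lung. The interaction passed for 0 markers of the 3 sets. The part of these cells in the change of the GTPases was not tested.

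The 8 genes varied together over the 12 lungs. Pearson's r between a pair of them ran from 0.62 to 0.99 over 28 pairs, with a median of 0.87, and within groups (group means removed) from -0.10 to 0.93, with a median of 0.58. Over the 7 lungs low in muscle genes it ran from 0.73 to 0.998, with a median of 0.93. The points share their arrays and the PM treatment, so these are descriptions. Each gene was scaled over the 12 lungs and the 8 were averaged to 1 profile, which stood at 0.26, 1.09 and 0.76 in dnCREB PM lungs, against -0.71, -0.62 and -0.64 in dnCREB PBS lungs. In wild type it stood at 0.26, 1.41 and 1.20 in PM lungs, against -0.89, -1.03 and -1.08 in PBS lungs.

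Over all 12 lungs, the genes most like that profile were Tbx21 (r = 0.97), Fam167b (0.97), Tmem158 (0.96), Fscn1 (0.96), Surf4 (0.96), Itpk1 (0.95), Nkg7 (0.95) and Il17d (0.95). Over the 7 lungs low in muscle genes their r lay between 0.95 and 0.99. Tbx21 stood at 4.94, 6.02 and 5.56 in dnCREB PM lungs, against 3.76, 3.52 and 3.66 in dnCREB PBS lungs. In wild type Tbx21 had 4.86, 6.55 and 5.49 in PM lungs, against 2.78, 3.24 and 3.49 in PBS lungs. All PBS lungs lay under the filter level of 4, so Tbx21 was among the genes compared only through its PM lungs. In both genotypes PM replicate 2 was the highest lung for Tbx21, as it was for Igtp and Irgm2. Nkg7, a granule protein of cytotoxic lymphocytes, stood at 6.997, 7.54 and 7.06 in dnCREB PM lungs, against 5.94, 5.74 and 6.05 in dnCREB PBS lungs. These groups did not overlap, which held for 20.8% of all genes in that direction. Nkg7 does not stand for its list, since of the 12 T cell and natural killer cell markers tested, 6 lay above 0 and 6 below in dnCREB lung.

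**Figure D2:**
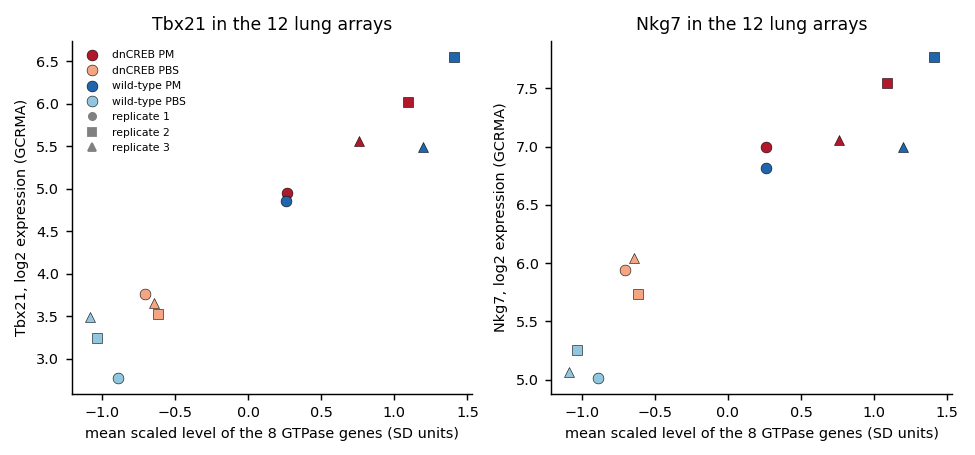
Log2 level of Tbx21 and of Nkg7 (vertical axes) against the mean scaled level of the 8 GTPases (horizontal axis, SD units) in the 12 lungs, 1 point per array, coloured by group. PM lungs lie to the upper right of the PBS lungs of their genotype, and PM replicate 2 of wild type lies farthest right, at 1.41.

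In the left ventricle 1 of the 7 GTPases tested differed between the genotypes. Gbp6 fell in dnCREB hearts under PBS and under PM, and the other 6 passed in neither comparison. With the Xist level as a covariate Gbp6 passed in neither. Under PBS, Gbp6 stood at 9.03, 9.50 and 9.62 in dnCREB hearts, against 11.55, 10.84 and 11.22 in wild-type hearts. The groups lay more than 1 log2 unit apart, and the difference was -1.82 ± 0.35 (SE), or 0.283-fold (adjusted p = 0.0058). Of all genes, 16.9% lay fully lower in dnCREB hearts under PBS. In this comparison 5.6% of all 9962 genes fell, so a single fall among 7 genes is near that background.

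Under PM, Gbp6 stood at 8.44, 8.63 and 8.63 in dnCREB hearts, against 10.00, 9.78 and 11.28 in wild-type hearts. The dnCREB hearts were nearly level, while wild-type replicate 3 stood well above the other wild-type hearts. The difference was -1.78 ± 0.35 (adjusted p = 0.0065), and 9.13% of all genes fell in this comparison. On average over PBS and PM the difference was -1.80 ± 0.25 (adjusted p = 0.0004), where 13.6% of all genes fell.

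A second Gbp6 probe set gave the same picture. It stood at 8.92, 9.28 and 9.42 in dnCREB PBS hearts, against 11.73, 10.35 and 11.57 in wild-type PBS hearts, a difference of -2.01 (adjusted p = 0.0155). Under PM it stood at 8.18, 7.91 and 8.37 in dnCREB hearts, against 9.56, 9.69 and 11.27 in wild-type hearts, a difference of -2.02 (adjusted p = 0.0148). All 6 dnCREB hearts lay below all 6 wild-type hearts on both probe sets.

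**Figure D3:**
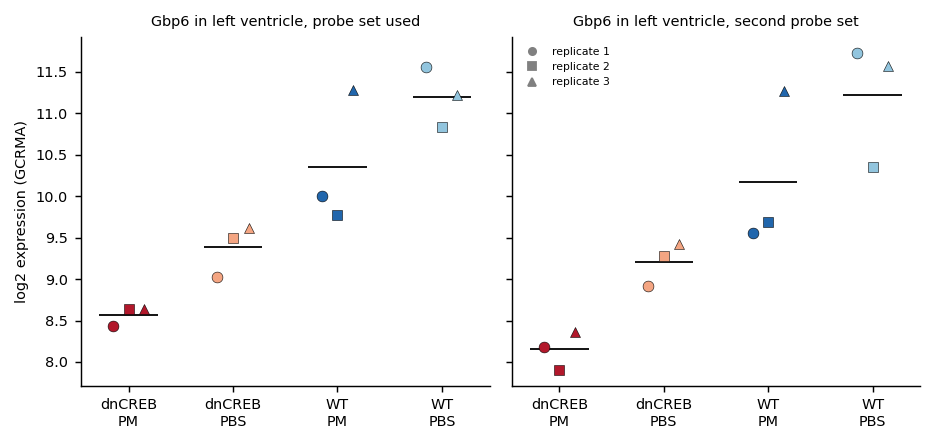
Log2 level (vertical axis) of Gbp6 in the left ventricle on each of its 2 probe sets, in dnCREB PM, dnCREB PBS, wild-type PM and wild-type PBS mice. Points are single arrays and the bar is the mean (n = 3). On both probe sets every dnCREB heart lies below every wild-type heart.

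The Xist level split the hearts almost by genotype, being low in 5 of the 6 dnCREB hearts and high in the 6 wild-type hearts. Under PBS, where the split is complete, sex and genotype cannot be told apart. With the Xist level as a covariate the averaged Gbp6 difference was -1.73 ± 0.48 (SE) and no longer passed (adjusted p = 0.051). The PBS difference was -1.73 (adjusted p = 0.160), and the PM difference was also -1.73 (adjusted p = 0.0519). The 1 dnCREB heart with high Xist, PM replicate 3, had Gbp6 at 8.63, below all 6 wild-type hearts, at 9.78 to 11.55. With a single such heart, sex and genotype cannot be told apart under PM either. Leaving out each heart in turn gave averaged differences from -1.95 to -1.57, and Gbp6 passed in 12 of 12 of them.

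The other 6 genes did not pass between the genotypes in heart. Igtp stood at 6.82, 7.64 and 7.72 in dnCREB PM hearts, against 7.86, 7.73 and 9.22 in wild-type PM hearts, groups that did not overlap (16.2% of all genes lay fully lower in dnCREB). The difference of -0.88 ± 0.57 (SE) did not pass (adjusted p = 0.314). Under PBS, Igtp stood at 7.47, 7.43 and 8.37 in dnCREB hearts and at 8.31, 7.48 and 9.70 in wild-type hearts, a difference of -0.74 (adjusted p = 0.394). On average its difference was -0.81 ± 0.40 (adjusted p = 0.142).

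Gbp3 stood at 8.996, 8.30 and 9.96 in dnCREB PBS hearts and at 7.09, 8.38 and 9.80 in wild-type PBS hearts, a difference of 0.66 ± 0.61 (adjusted p = 0.475). Under PM its difference was 0.45 (adjusted p = 0.642). Differences under PBS and under PM were 0.54 and 0.20 for Iigp1, 0.21 and 0.47 for Gbp2, -0.10 and 0.32 for Irgm1, and -0.02 and -0.45 for Irgm2. In each of these 4 genes the genotypes overlapped under both treatments. The lowest adjusted p among them was 0.240, for Irgm1 under PM.

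**Figure D4:**
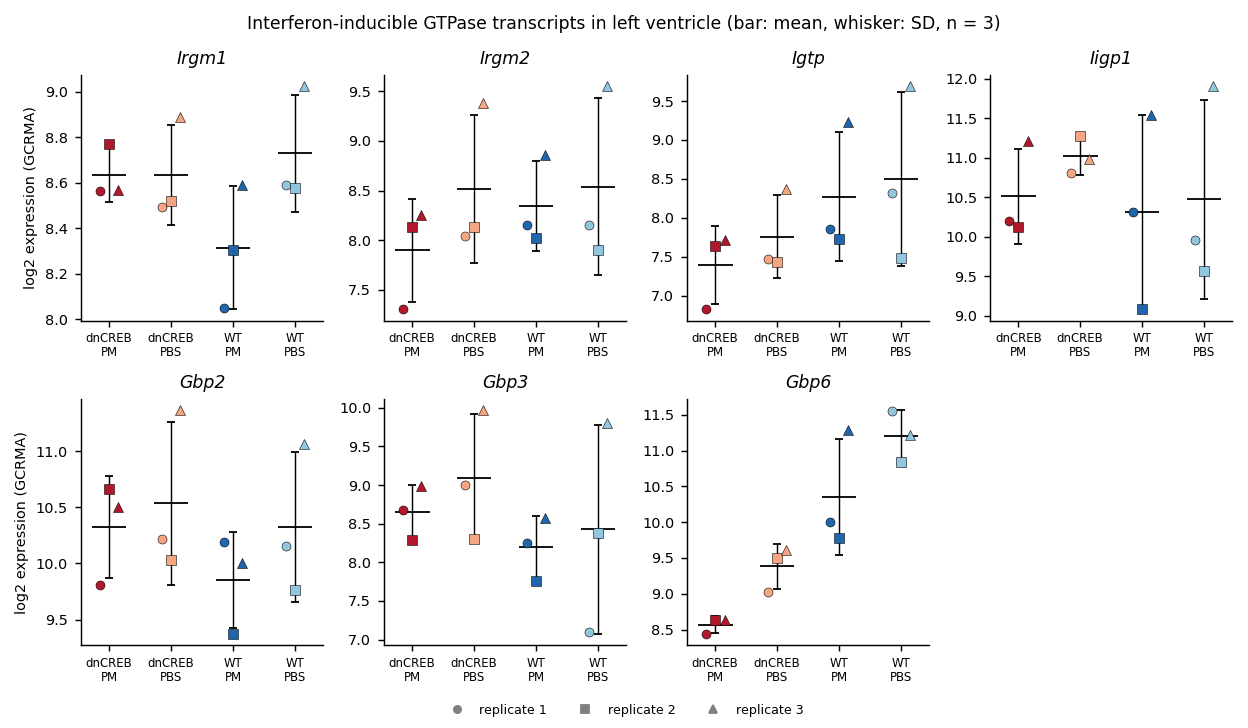
Log2 level (vertical axis) of the 7 GTPases tested in the left ventricle, 1 panel per gene, in dnCREB PM, dnCREB PBS, wild-type PM and wild-type PBS mice. Points are single arrays, the bar is the mean and the whisker the SD (n = 3). Under both treatments every dnCREB heart lies below every wild-type heart for Gbp6, under PM the same holds for Igtp, and in the other 5 panels the genotypes overlap under both treatments.

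PM did not change any of the 7 GTPases detectably in heart. In wild type, 0 of 7 passed, against 0.01% of all genes, and changes ran from -0.85 ± 0.35 (SE) for Gbp6 to -0.16 for Iigp1, all below 0. By limma at an unadjusted p under 0.05, 2 of 7 (Gbp6 and Irgm1, at -0.42) and 146 genes differed. In dnCREB hearts 0 of 7 passed, as did 0% of all genes, with changes from -0.81 ± 0.35 for Gbp6 to -0.0007 for Irgm1. There 1 of 7, Gbp6, and 490 genes had an unadjusted p under 0.05, and Gbp6 alone of the 7 did not overlap between PM and PBS (4.97% of all genes lay fully lower under PM). The interaction passed for 0 of 7 and for 0% of all genes, with 0 of 7 and 361 genes at an unadjusted p under 0.05.

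The wild-type values depended on PBS replicate 3, the heart with the highest levels of Irgm2 (9.55), Igtp (9.70) and Iigp1 (11.91). Without it the wild-type PM change was 0.37 for Igtp, 0.32 for Irgm2, 0.46 for Gbp3 and 0.56 for Iigp1, all with an adjusted p of 1. The profile of the 7 genes, scaled as in lung, stood at -0.79, -0.18 and 0.01 in dnCREB PM hearts and at -0.21, -0.22 and 1.04 in dnCREB PBS hearts. In wild type it stood at -0.47, -0.91 and 0.62 in PM hearts and at -0.16, -0.40 and 1.65 in PBS hearts. In each group 1 heart, replicate 3, lay highest, but replicates carry no order and the numbers did not pair the samples.

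Over the 12 hearts, Pearson's r between a pair of the 7 genes ran from -0.19 to 0.88 over 21 pairs, with a median of 0.58. Within groups it ran from 0.09 to 0.94, with a median of 0.64, against the 0.58 within groups in lung. The genes most like the heart profile over 12 hearts were Etaa1 (r = 0.90), Tsacc (0.86), Psmb9 (0.86), Lztfl1 (0.81), Zfp455 (0.80), Rfc1 (0.79), Erap1 (0.78) and Gbp7 (0.77). Psmb9 is a subunit of the immunoproteasome and Erap1 trims peptides for antigen presentation.

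Other interferon genes were counted in the dnCREB heart from the same lists. Of 11 type I interferon response genes tested, 4 rose in dnCREB hearts under PBS and 3 under PM, with Ifit2 at 2.38 and Oasl2 at 2.10 under PBS. Of 13 genes of interferon-gamma supply, reception and signalling, 0 rose and 1 fell under PBS, and 4 rose under PM, with Irf8 at 2.00 and Ifngr1, the receptor chain that binds the ligand, at 0.76. Of 17 other interferon-gamma induced genes, 2 rose and 1 fell under PBS, with Psmb10 at 1.55 and Psme1 at -0.76, and 4 rose and 1 fell under PM. These counts stand beside 13.2% of all genes that rose under PBS and 11.4% under PM, so under PBS the rises of the signalling list and of the other induced genes were no more frequent than in the background. With the Xist level as a covariate the type I count was 0 under PBS and 3 under PM. Of 3 other IRG and GBP genes tested, 0 passed.

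Markers of other cells differed between the genotypes in heart too. Over all genes, 13.2% rose in dnCREB hearts under PBS and 11.4% under PM. Of 6 fibroblast markers, 5 rose in dnCREB hearts under PBS and 5 under PM, with medians of 1.14 and 1.04 and with Col1a1, a collagen chain, at 2.45 (adjusted p = 0.0052) and 2.65 (adjusted p = 0.0035). Their mean level was 12.0 to 13.3 in dnCREB PM hearts and 12.7 to 12.9 in dnCREB PBS hearts, against 11.4 to 11.7 in wild-type PM hearts and 11.4 to 11.6 in wild-type PBS hearts. With the Xist level as a covariate 4 rose under PBS and 5 under PM. Of 12 macrophage markers, 1 rose under PBS and 9 under PM, while 11 of 13 T cell and natural killer cell markers lay under 4 on all hearts. The macrophage counts were made without the Xist covariate. The part of these cells in the levels of the GTPases was not tested.

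The PM change was compared between the tissues as a difference of changes, since lung and heart arrays appear to have been normalized separately. It was tested over the 9244 genes that passed the level filter in both tissues, 7 GTPases among them and not Ifi47. Averaged over genotypes, it was higher in lung than in heart for 2 of the 7, against 0.454% of all genes tested. For Irgm1 the difference was 1.30 ± 0.21 (SE), from 1.09 in lung and -0.21 in heart (adjusted p = 0.0145). For Gbp6 it was 1.92 ± 0.36, from 1.09 in lung and -0.83 in heart (adjusted p = 0.0281). Without the 5 lungs high in muscle genes, or without wild-type PBS heart 1 or wild-type PM heart 2, only Irgm1 passed. Without wild-type PM lung 1 or wild-type PBS heart 2, 4 passed (Gbp6, Igtp, Irgm1 and Irgm2).

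The other 5 genes had differences of the same sign that did not pass, at 1.78 for Igtp (adjusted p = 0.0902), 1.69 for Irgm2 (adjusted p = 0.0534), 1.68 for Iigp1 (adjusted p = 0.172), 1.55 for Gbp3 (adjusted p = 0.146) and 0.93 for Gbp2 (adjusted p = 0.206). The effect of dnCREB also differed between tissues for Gbp6, at -1.80 in heart and 0.12 in lung, a difference of -1.92 ± 0.36 (adjusted p = 0.0007), where 6.03% of all genes were lower in that direction. It was the only GTPase of the 7 to pass that test, also with the Xist level as a covariate. That fit has a single Xist slope for both tissues, and Xist split the hearts almost by genotype. It therefore cannot tell sex from genotype for Gbp6.

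**Figure D5:**
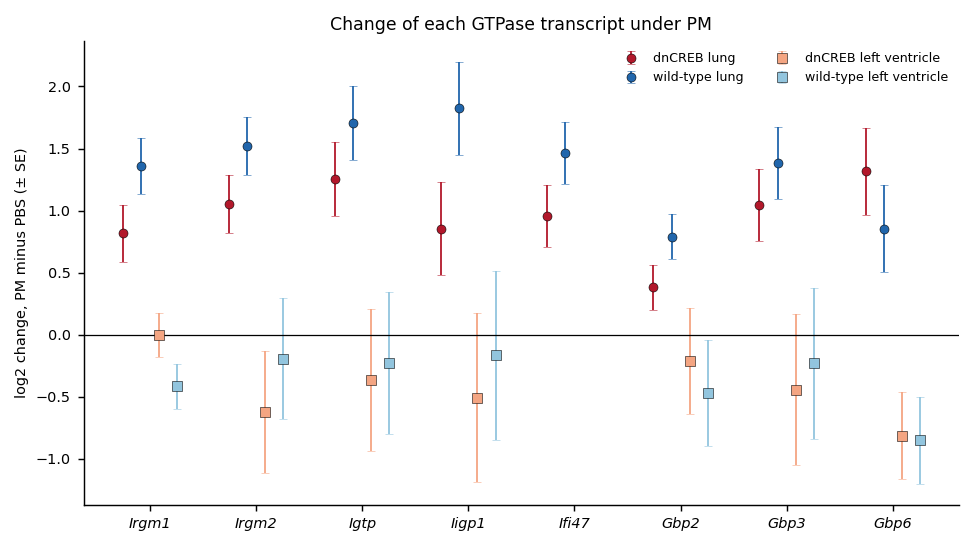
Log2 change under PM (PM minus PBS, vertical axis) of each GTPase in dnCREB lung, wild-type lung, dnCREB left ventricle and wild-type left ventricle. Points are limma estimates and whiskers 1 SE. All lung estimates lie above 0, from 0.38 to 1.82, and all heart estimates of the 7 tested genes lie at or below 0, from -0.85 to -0.0007.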

How the data were processed

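Total RNA from mouse lung and left ventricle was measured on 24 Affymetrix arrays. The authors deposited log2 values per probe set, made with GCRMA per the submitters' processing notes. GCRMA corrects background by probe sequence and normalizes between arrays, which compresses low levels, and its version and parameters are not given in the sources used here. Array minima were between 0.52 and 0.56 for lung and between -0.22 and -0.20 for heart, which separate normalization of the tissues would give, and levels were not compared across tissues.

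Of 45037 probe sets, 34945 carried 1 gene symbol, and 932 with several and 9160 with none were left out. Each tissue was fitted with limma 3.58.1 (R 4.3.3) as 4 group means over 12 arrays and adjusted by Benjamini-Hochberg over all genes tested. The difference between tissues used 1 model over 24 arrays and the genes passing the filter in both tissues, and was added after the data were seen. The fit was tested on simulated data. Arrays give no counts, and their number limits the precision. Groups come from the sample titles. Genes named are the 9 GTPases, of which 8 could be measured, with up to 4 genes of the smallest p from each other list and the 8 genes most correlated with the mean profile. The members and lists were chosen with earlier results of these data known. Alternatives were other filters, probe sets, normalizations, weights and covariates, and leaving out arrays. Tables used Python 3.11.15 and pandas 2.3.3, and plots matplotlib 3.10.9.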

Additional observations from a re-analysis of the deposited data

Results flagged for a closer look

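The PM change averaged over genotypes differed between the tissues, by a test of the difference itself, for Gbp6 (lung minus left ventricle 1.92) and Irgm1 (1.30). The dnCREB change averaged over PBS and PM differed between the tissues for Gbp6, with left ventricle minus lung at -1.92.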

How the results depend on the processing

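The wild-type lung count of 7 was 3 with no filter, 0 in a fit of only the 2 groups compared, 0 with the skeletal muscle covariate, 0 without the 5 lungs high in skeletal muscle genes, and 0 to 7 leaving out each lung. The dnCREB lung count of 0 was 8 with array weights, where 11.3% of all genes rose. The averaged lung count of 8 was 5 with the Xist covariate, 0 without those 5 lungs, and 5 to 8 leaving out each lung (5 without dnCREB PBS 1 or dnCREB PM 2). Gbp6 in heart, counted as 1 under PBS, under PM and on average, gave 0 in all 3 with the Xist covariate. The PM difference between tissues, 2, was 3 over genes measured in either tissue, 1 without the 5 lungs, and 1 to 4 leaving out each array. The cause of these changes was not tested, except that the fits of fewer arrays have fewer samples and the fit with no filter has more genes. Over all genes, leaving out each lung gave 38 to 625 calls in wild-type lung and 155 to 1324 on average over the genotypes.

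Replicate numbers did not pair the samples: 4 of 18 correlations between same-numbered deviations exceeded 0.1 in lung and 4 of 18 in heart, and 0 of 12 lungs and 4 of 12 hearts correlated best with their own number. With the replicate number as a block, 6 passed in wild-type lung, 0 in dnCREB lung and 8 on average, and 2 passed for genotype in heart on average, Igtp (adjusted p = 0.0315) and Gbp6.

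Of 2226 values of single genes under alternatives, 69 had the opposite sign. None of those was of a result that passed, and their lowest adjusted p was 0.518. In the lung interaction Gbp6 was -0.12 on its second probe set and -0.35 without the 5 lungs. In dnCREB against wild-type lung under PBS, Gbp6 was 0.39 on its second probe set, 0.28 with array weights, 0.077 with the muscle covariate, 0.11 without the 5 lungs and -0.43 to 0.22 leaving out each lung, and Ifi47 was -0.0076 with array weights. Under PM, Iigp1 was 0.082 on its second probe set, Gbp3 0.12 and Igtp 0.13 with array weights, and Gbp6 -0.24 without the 5 lungs. Leaving out each lung under PM gave -0.34 to 0.30 for Gbp3, -0.58 to 0.11 for Igtp and -0.40 to 0.27 for Iigp1.

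In dnCREB against wild-type heart under PBS, Gbp2 was -0.069 on its second probe set, and Irgm2 was 0.037 with arrays centred on their median and 0.36 with the Xist covariate. Leaving out each heart under PBS gave -0.20 to 0.58 for Gbp2, -0.0027 to 1.35 for Gbp3, -0.22 to 0.052 for Irgm1 and -0.45 to 0.49 for Irgm2, and under PM -0.42 to 0.82 for Iigp1. On average, Irgm1 was -0.019 with quantile normalization, and Irgm2 was 0.077 with the Xist covariate and -0.45 to 0.023 leaving out each heart.

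For PM in wild-type heart, array weights gave 0.18 for Gbp3, 0.19 for Igtp, 0.41 for Iigp1 and 0.10 for Irgm2, and leaving out each heart gave -0.90 to 0.46 for Gbp3, -0.74 to 0.37 for Igtp, -0.78 to 0.56 for Iigp1 and -0.51 to 0.32 for Irgm2. In dnCREB heart, Irgm1 was 0.038 with quantile normalization, 0.0031 with centred arrays, 0.044 with array weights, 0.047 with the Xist covariate and -0.071 to 0.13 leaving out each heart, and Gbp2 was 0.063 with array weights and -0.46 to 0.20 leaving out each heart. In the heart interaction Gbp6 was -0.012 on its second probe set, -0.056 with array weights and -0.25 to 0.50 leaving out each heart, and leaving out each heart gave -0.11 to 0.68 for Gbp2, -0.90 to 0.46 for Gbp3, -0.74 to 0.37 for Igtp and -1.06 to 0.27 for Iigp1.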
